A study of Arabidopsis thaliana with 4 samples.

Results

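The 9 genes described here encode the classical light receptors of Arabidopsis thaliana. They are the 5 phytochromes PHYA (AT1G09570), PHYB (AT2G18790), PHYC (AT5G35840), PHYD (AT4G16250) and PHYE (AT4G18130), the 2 cryptochromes CRY1 (AT4G08920) and CRY2 (AT1G04400), and the 2 phototropins PHOT1 (AT3G45780) and PHOT2 (AT5G58140). They were chosen by locus, and all 9 had a value in each of 4 sequencing libraries, among 17049 loci listed in all of them and 23498 listed in any. The method, GMUCT (global mapping of transcripts that are uncapped or cleaved), sequences polyadenylated RNAs from the front end left after the cap is lost or the RNA is cut. Each library was deposited as 1 table that gives every gene a co-translational RNA decay index, taken here as a ratio without a unit. The comparison sets libraries labelled as lacking ABH1, the large subunit of the nuclear cap-binding complex, against libraries labelled as wild type.

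Both groups have the Col-0 background. The 2 abh1 libraries carry the label of a mutant that lost ABH1 function, and the 2 Col-0_CHX libraries that of the wild type. CHX is not spelled out, and the labels call all plants untreated. All 4 are labelled as buds of the immature inflorescence at about 4 weeks, under days of 16 h light and 8 h dark. The labels number the libraries of each group as replicates 1 and 2, but the titles of the abh1 libraries carry 1 and 8, which may stand for different alleles. No label settles this or tells whether replicates were separate plants. The abh1 spread may thus include a difference between alleles, and p-values cover the spread between these libraries only, which may be technical. Genotype and the CHX of the titles cannot be told apart in this design. The number of loci listed, and which flower genes were listed, also differed between the groups, as described below. What lies behind these differences cannot be told apart from genotype either.

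Phytochromes are red and far-red light receptors that carry a bilin pigment. On activation they enter the nucleus and act on PIF transcription factors. Cryptochromes are flavin-binding blue light receptors that restrain the COP1/SPA ubiquitin ligase, and phototropins are membrane-associated blue light kinases that steer growth, chloroplast movement and stomatal opening. In co-translational decay, a 5′ exonuclease follows the last ribosome along an mRNA whose cap has been removed, so that the ends of the intermediates keep step with the codons.

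Of 12 flower genes used to check the labelled tissue, 12 had an index in both abh1 libraries, 1 (AP2) in both Col-0_CHX libraries and 8 in neither of the latter. Whether the tissue differed, and its part in the results below, was not tested. In bulk libraries fewer cells of a type and less RNA per cell cannot be told apart. The Col-0_CHX libraries held fewer loci (18321 and 18215) than the abh1 libraries (22495 and 22492). More of their loci had a value that over 10 loci share exactly (43.6% and 42.7%, against 27.2% and 29.3%), as happens to ratios of small whole numbers. Over the 17049 loci the abh1 libraries had a median of 1.15 and 1.14 and the Col-0_CHX libraries of 1.37 and 1.29, so the libraries as a whole were shifted. The median difference of all loci, abh1 minus Col-0_CHX on the log2 scale, was -0.23. Read numbers behind the values are unknown, and so no counting interval is given.

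All 9 photoreceptor genes had a lower mean log2 index in abh1 than in Col-0_CHX, where 72.2% of all loci did. Their median index was 1.15 and 1.20 in the abh1 libraries and 1.70 and 1.50 in the Col-0_CHX libraries. The median of their log2 differences was -0.31, which is -0.083 relative to the median of all loci. In 7 of the 9, both abh1 libraries lay below both Col-0_CHX libraries, where this held for 45.2% of all loci. PHYC and PHYE were the other two. With every library centred on its own median, 3 of the 9 kept this separation (PHYB, CRY1 and CRY2), against 26.3% of all loci. No photoreceptor gene passed limma's moderated test at a Benjamini-Hochberg adjusted p of 0.05, and neither did any other locus (0 of 17049, 0%). At an unadjusted p under 0.05, 2 of the 9 were lower in abh1 (CRY1 and CRY2), where 17.2% of all loci were.

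**Figure D1:**
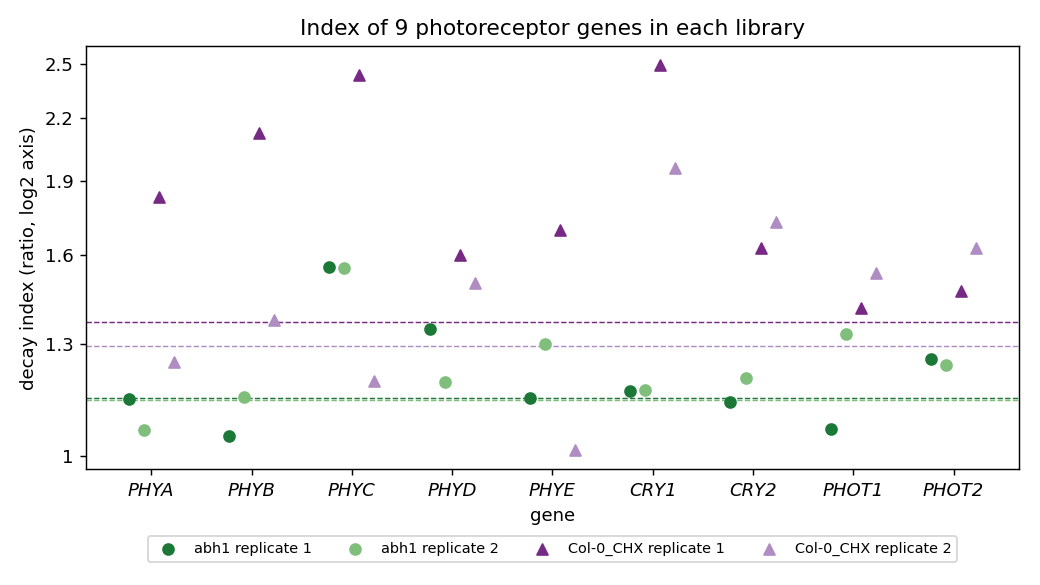
Index (ratio, log2 axis) of the 9 photoreceptor genes, 1 point per library, with circles for abh1 and triangles for Col-0_CHX. Dashed lines are the medians of the 17049 loci in each library, from 1.14 to 1.37. PHYC and PHYE are the genes whose groups overlap.

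CRY1 had the largest difference of the 9 genes. This main blue light receptor of seedling greening stood at an index of 1.16 and 1.17 in abh1, and at 2.49 and 1.96 in Col-0_CHX. The abh1 values were nearly equal and close to the library median, at the 54.7 and 56.6 percentiles. The Col-0_CHX values stood at the 91.0 and 85.8 percentiles, and in both of these libraries CRY1 ranked first among the 9 genes. The difference, abh1 minus Col-0_CHX, was -0.92 ± 0.18 on the log2 scale (SE, n = 2 per group), a 1.89-fold higher index in Col-0_CHX with a 95% interval of 1.31 to 2.74. Its limma adjusted p over all loci was 0.171, and other settings that kept all 4 libraries gave 0.0446 to 0.345. Of all loci, 9.51% had a difference below that of CRY1.

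CRY2, which is degraded in blue light and promotes flowering in long days, stood at 1.14 and 1.20 in abh1, and at 1.63 and 1.73 in Col-0_CHX. The groups did not overlap, and the replicates were 1.06-fold apart in each group, less than the median of all loci (1.11-fold in abh1 and 1.25-fold in Col-0_CHX). The log2 difference was -0.52 ± 0.14 (SE, n = 2 per group), or 1.44-fold, with a 95% interval of 1.09 to 1.89 and a limma adjusted p of 0.197. In abh1 the index of CRY1 was 1.03 and 0.974 times that of CRY2, and in Col-0_CHX it was 1.53 and 1.13 times. The log2 ratio of the pair thus differed by -0.40 between the groups; with 2 libraries against 2, an exact two-sided permutation test cannot give a p below 0.333.

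A call of CRY1 depended on which loci were tested. Of the 9 genes, 6 had no value shared by over 10 loci in any library: PHYA, PHYE, CRY1, CRY2, PHOT1 and PHOT2. When the fit was limited to the 6572 loci of this kind, CRY1 was the only 1 of the 6 called, with a limma adjusted p of 0.0446, where 8.03% of these loci were called lower in abh1. CRY2 came to an adjusted p of 0.0545. Leaving out either abh1 library ended the call of CRY1, as it ended every call among the 6572 loci. The difference of CRY1 stayed at -0.92 in both cases. Centring each library on its median also ended the call (limma adjusted p of 0.0863, with 0% of the 6572 loci called). Without the first Col-0_CHX library CRY1 and CRY2 were called, where 17.3% of the 6572 loci were. Without the second CRY1, CRY2 and PHYA were called, where 29.8% of loci were.

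Of the 9 genes, PHYA, PHYB, PHYC and PHYE had the widest gaps between the Col-0_CHX replicates, at 1.47-fold to 2.04-fold. PHYA, the light-labile phytochrome that senses far-red light, gave an index of 1.14 and 1.06 for abh1, and of 1.83 and 1.25 for Col-0_CHX. PHYB, the main red light receptor of the adult plant, gave 1.05 and 1.15, and 2.12 and 1.38. Neither gene's groups overlapped, but the second Col-0_CHX library lay much nearer to abh1 than the first. The log2 difference was -0.45 ± 0.25 for PHYA and -0.64 ± 0.27 for PHYB (SE, n = 2 per group), with limma adjusted p of 0.388 and 0.303. Without the first Col-0_CHX library the differences were -0.18 and -0.32, and without the second -0.73 and -0.95. The Col-0_CHX values of PHYB were shared by 33 and 69 loci of their library, so they may be coarse ratios.

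PHYC, a light-stable phytochrome, had the highest index of the 9 genes in both abh1 libraries. It stood there at 1.56 and 1.55, at the 89.7 and 89.5 percentiles, and the 2 libraries were 1.00-fold apart. In Col-0_CHX it had 2.44 and 1.19, a 2.04-fold gap between replicates that exceeded that of 85.3% of loci. These 2 values were shared by 10 and 18 loci of their library. The abh1 values lay between the Col-0_CHX values, and the log2 difference of -0.13 ± 0.41 (SE, n = 2 per group; limma adjusted p = 0.876) had a 95% interval of -1.31 to 1.04. Leaving out the first Col-0_CHX library turned it to 0.38, and leaving out the second made it -0.65.

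PHYE, another light-stable phytochrome, was like PHYC in that its direction rested on 1 library. Its index was 1.15 and 1.30 in abh1, while Col-0_CHX had 1.70 and 1.01, so the abh1 values again lay between the others. The log2 difference was -0.10 ± 0.31 (SE, n = 2 per group; limma adjusted p = 0.876), with a 95% interval of -1.01 to 0.80. It turned to 0.27 without the first Col-0_CHX library, was -0.47 without the second, and was -0.012 and -0.19 without the first or the second abh1 library.

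PHYD, the close relative of PHYB, stood at 1.35 and 1.19 in abh1, while Col-0_CHX had 1.60 and 1.50. The groups did not overlap, and the log2 difference was -0.29 ± 0.15 (SE, n = 2 per group; limma adjusted p = 0.369). Its Col-0_CHX values were shared by 47 and 450 loci of their library, the most of any of the 9 genes. PHYB had 0.779 and 0.966 times the index of PHYD in abh1, and 1.33 and 0.917 times in Col-0_CHX, so the order of the pair in Col-0_CHX differed between its 2 libraries. Each of the 5 phytochromes had a higher index in the first Col-0_CHX library than in the second, by 1.07-fold (PHYD) to 2.04-fold (PHYC). The median of the 5 was 1.83 in the first and 1.25 in the second, while the medians of all loci were 1.37 and 1.29.

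The phototropin differences lay close to the median of all loci. PHOT1, which acts over a wide range of blue light, stood at 1.07 and 1.33 in abh1, while Col-0_CHX had 1.41 and 1.54. PHOT2, which acts in strong light and drives chloroplast avoidance, had 1.25 and 1.24 against 1.47 and 1.63. In both genes the groups were separate, and PHOT2 had the tighter replicates in abh1 (1.01-fold apart, against 1.25-fold for PHOT1). The log2 differences were -0.31 ± 0.18 for PHOT1 and -0.31 ± 0.14 for PHOT2 (SE, n = 2 per group), with limma adjusted p of 0.421 and 0.324 and 95% intervals of -0.83 to 0.22 and -0.72 to 0.098. Relative to all loci they were -0.078 and -0.083. Without the first abh1 library the difference of PHOT1 was -0.15, and without the second -0.47. The index of PHOT1 was 0.851 and 1.08 times that of PHOT2 in abh1 and 0.961 and 0.945 times in Col-0_CHX. Unlike the phytochromes, both phototropins and CRY2 had the higher index in the second Col-0_CHX library.

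**Figure D2:**
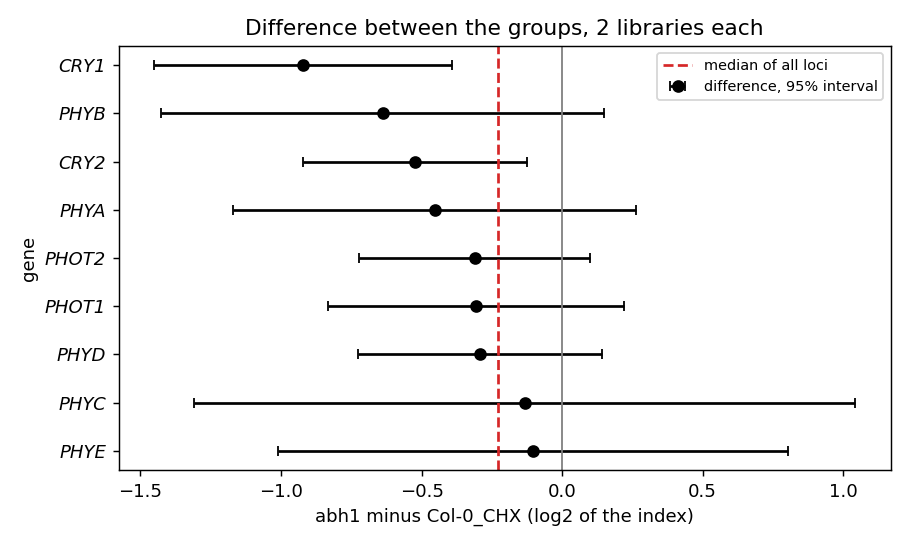
Difference in log2 index, abh1 minus Col-0_CHX, for each photoreceptor gene with its 95% interval from limma (2 libraries per group). The red dashed line is the median of all loci, -0.23. The intervals of CRY1 and CRY2 lie below 0, and that of CRY1 also lies below the dashed line.

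Ordered by mean log2 index, the abh1 levels ran PHYC, PHYD, PHOT2, PHYE, PHOT1, CRY2, CRY1, PHYA and PHYB, from 1.55 down to 1.10 as geometric means of the index. Only PHYC against PHYD, and CRY1 against PHYA, were neighbours whose 2 libraries did not overlap in range. In Col-0_CHX the order was CRY1, PHYB, PHYC, CRY2, PHYD, PHOT2, PHYA, PHOT1 and PHYE, from 2.21 down to 1.31. There CRY2 against PHYD were the only neighbours without overlap. PHYB was last of the 9 in abh1 and second in Col-0_CHX, while CRY1 was seventh and first, but the replicate ranges of PHYB reached across most of the order in Col-0_CHX.

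The 4-library profile of the photoreceptor median was a common one. Of 3378 other loci that have a symbol and no repeated value, 689 lay within a root mean square difference of 0.2 on the log2 scale. The nearest were ATM1 (AT3G19960), NRP1 (AT2G03440) and WAK1 (AT1G21250), at 0.026, 0.034 and 0.035. Nearest to CRY1, the gene with the largest difference, was SNC4 at 0.063, with 1.26 and 1.19 in abh1 against 2.55 and 1.91. Nearest to PHYE, the gene with the smallest, was IRX14 at 0.056, with 1.18 and 1.31 against 1.63 and 1.08.

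Other genes of light perception and signalling were also mostly lower in abh1, with a median log2 difference of -0.46 beside -0.31 for the photoreceptors. The contrast was not tested, and over loci without repeated values its order turned, with -0.33 for the list and -0.38 for the photoreceptors. Of 41 such loci, 39 had an index in all 4 libraries; LAF1 and HO4 did not. The abh1 libraries had a median index of 1.13 and 1.12 over the 39, and the Col-0_CHX libraries of 1.59 and 1.52. Relative to all loci their median difference was -0.23, and 36 were lower and 3 higher in abh1 where 72.2% of all loci were lower. With each library centred 34 were lower, beside 50.9% of all loci, and with quantile normalization 30, beside 49.8%. Both abh1 libraries lay below both Col-0_CHX libraries in 31 (45.2% of all loci) and above them in 2 (10.7%). None passed limma's test over all loci, and 13 were lower and 1 higher at an unadjusted p under 0.05, where 17.2% and 2.84% of all loci were.

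The PIF factors, which phytochromes act on directly, were lower in abh1 in 6 of 6, where 72.2% of all loci were lower. In 4 of the 6 both abh1 libraries lay below both Col-0_CHX libraries, against 45.2% of all loci. PIF1, a repressor of seed germination in the dark, had an index of 0.861 and 0.915 against 1.62 and 1.45, and its groups were well apart. Of the 8 genes of the COP1, SPA and DET1 machinery, which marks light-signalling proteins for destruction, 7 were lower. SPA3 had 1.05 and 1.08 against 1.61 and 1.65, and DET1 was the exception at 1.55 and 1.64 against 1.70 and 1.36. Among the 5 transcription factors listed in all libraries 4 were lower, with HFR1, which promotes responses to far-red light, at 0.941 and 1.14 against 1.71 and 2.07. HYH was higher in abh1, at 1.28 and 1.23 against 1.02 and 1.12. Unlike HYH, the genes PIF1, SPA3, DET1 and HFR1 were not among the loci without repeated values, so their indices may include coarse ratios. The log2 differences of PIF1, SPA3 and HFR1 were -0.79 ± 0.15, -0.61 ± 0.13 and -0.86 ± 0.20 (SE, n = 2 per group), with limma adjusted p of 0.168, 0.176 and 0.181.

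FHL, which with FHY1 carries phytochrome A into the nucleus, had its higher values in abh1. Its index was 2.25 and 1.62 there and 1.07 and 1.18 in Col-0_CHX, which differ on the log2 scale by 0.77 ± 0.22 (SE, n = 2 per group; limma adjusted p = 0.218). FHY1 itself had 1.20 and 1.12 against 1.25 and 1.86, so the pair of related carriers differed in sign. The log2 difference of FHY1 was only -0.39 ± 0.25 (SE, n = 2 per group; limma adjusted p = 0.446), and its first Col-0_CHX value lay close to abh1. Of 4 genes placed under chromophore synthesis and listed in all libraries, 4 were lower, where 72.2% of all loci were. Among them was HO2, named heme oxygenase 2, at 1.22 and 1.13 against 1.64 and 2.27 (limma adjusted p = 0.227). CIB1, a transcription factor that binds CRY2, had 0.938 and 1.09 against 1.83 and 1.30 (limma adjusted p = 0.283). FHL, FHY1, HO2 and CIB1 were likewise not among the loci without repeated values, so their indices may include coarse ratios.

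All 7 phototropin partners were lower in abh1, and in all 7 the groups did not overlap, where 72.2% and 45.2% of all loci did so. With the libraries centred, 4 of the 7 stayed apart, against 26.3% of all loci. PKS4, a substrate of phototropin in phototropism, had 0.857 and 0.542 against 7.50 and 6.50, a log2 difference of -3.36 ± 0.29 (SE, n = 2 per group; limma adjusted p = 0.167). At least 1 of its values was shared by over 10 loci, and the number of reads behind so high an index is unknown. NPH3, the scaffold that phototropins act through, had 0.993 and 0.992 against 1.49 and 1.11. The 5 other light receptors were lower too, where 72.2% of all loci were. In 4 of the 5 the groups did not overlap, and with the libraries centred in 2, against 45.2% and 26.3% of all loci. ZTL, an F-box blue light receptor of the clock, had 0.993 and 0.986 against 1.54 and 1.67 (limma adjusted p = 0.171). UVR8, the ultraviolet-B receptor, had 1.13 and 1.14 against 1.16 and 1.24, and with centring its log2 difference turned to 0.14. Over the 6572 loci without repeated values, ZTL was the 1 called among 14 list genes (limma adjusted p = 0.0401), where 8.63% of these loci were called. Whether that call holds with single libraries left out likewise cannot be judged.

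**Figure D3:**
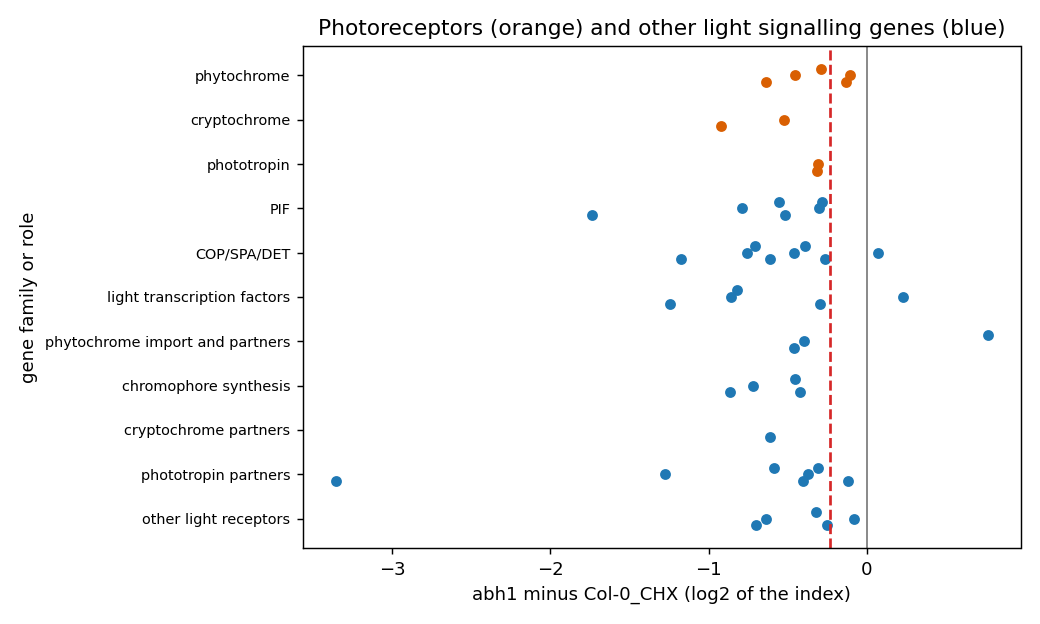
Difference in log2 index, abh1 minus Col-0_CHX, with 1 point per gene: photoreceptor families in orange and 39 other light signalling genes by role in blue. The red dashed line is the median of all loci, -0.23. PKS4 is the point at -3.36 and FHL the point at 0.77.

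Scaling between libraries decided the sign for some photoreceptor genes. With each library centred, the difference was -0.70 for CRY1, -0.42 for PHYB, -0.30 for CRY2 and -0.23 for PHYA. It stayed below 0 for PHYD, PHOT1 and PHOT2 (-0.072 to -0.091) and was above 0 for PHYC (0.087) and PHYE (0.12). Quantile normalization also brought PHYD and PHOT2 above 0, at 0.056 and 0.017. Of the 9 genes, 7 were thus lower in abh1 with centring, beside 50.9% of all loci. With quantile normalization 5 were, beside 49.8%.

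**Figure D4:**
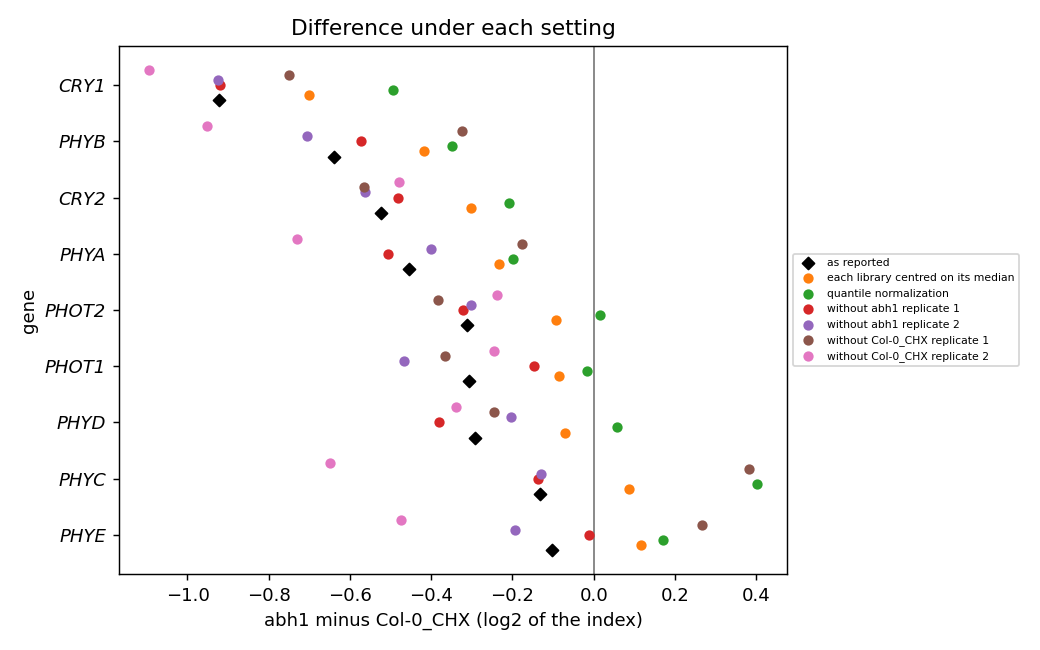
Difference in log2 index, abh1 minus Col-0_CHX, of each photoreceptor gene as reported (black diamonds), with libraries rescaled, or with 1 library left out. CRY1, PHYB, CRY2, PHYA and PHOT1 stay below 0 in all of these settings, while PHYC runs from -0.65 to 0.40. PHOT1 comes as near as -0.017 with quantile normalization.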

How the data were processed

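The authors deposited, for each of the 4 polyA-selected GMUCT libraries (50 nt reads, strand kept, per the labels' protocols), 1 table of gene models with a decay index, a linear ratio. The submitters' processing notes name cutadapt 1.4.2, STAR 2.4.0 and TAIR10. For the calculation of the index, its read minimum and the annotation, nothing is given in the sources used here, and what a value of 1 stands for is therefore left unsaid. All values were above 0, which alone does not show that the index is a ratio.

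Indices were put on the log2 scale without a pseudocount. The 17049 loci listed in all 4 libraries were fitted by lmFit and eBayes of limma 3.58.1 (R 4.3.3) with no covariate, with Benjamini-Hochberg adjustment over all of them and a threshold of 0.05. The fit was run on simulated data with planted changes, as a check that the mean estimated differences came near them. It was no check of the p-values or of power. Replicates had identical values at 0.334% (abh1) and 0.645% (Col-0_CHX) of loci, so neither pair was a copy. Symbols came from a RefSeq table of TAIR10.1, used for names only. All 9 photoreceptor symbols matched, and 5 of 46 loci written for the light signalling list had no symbol there and were left out. No sequence is printed, and the planned protein identity of related pairs was not computed. The members and lists were chosen with earlier results of these data known. Besides the 9 genes, the text names per role the list gene with the smallest p and, chosen after values were seen, AP2, LAF1, HO4, DET1, HYH, FHY1, NPH3 and UVR8. Alternatives were other sets of loci, rescaling, other fits, a pseudocount of 0.1, a replicate block and leaving out each library; a lone remaining library is then taken to vary as the other group does. All other steps ran in Python 3.11.15 with pandas 2.3.3, numpy 2.4.6 and matplotlib 3.10.9.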

Additional observations from a re-analysis of the deposited data

How the results depend on the processing

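Depth is unknown, and 2 libraries per group limit every test. As reported, 0 photoreceptor genes and 0 genes of the light signalling list passed. The counts were also 0 with rescaling, trended and robust fitting, a pseudocount of 0.1, the replicate block, loci listed at least once in each group and a threshold of 0.1. Over loci without repeated values they were 1 and 1 (CRY1, at -0.92, and ZTL). Leaving out single libraries, over all loci or over those without repeated values, gave 0 to 3 photoreceptor genes and 0 to 5 list genes, where 0% to 29.8% of loci were called; the settings with both choices were added after seeing the data. The median difference of the photoreceptor genes was -0.091 with centring, -0.017 with quantile normalization and -0.16 with centring over loci without repeated values. That of the list was -0.24 with centring, -0.30 with quantile normalization and -0.33 over loci without repeated values, where the photoreceptor genes had -0.38. Centring turned PHYC (0.087) and PHYE (0.12, also without repeated values), and quantile normalization turned PHYC (0.40), PHYD (0.056), PHYE (0.17) and PHOT2 (0.017). Rescaling by construction takes the shift of whole libraries out of each difference. The cause of the other changes was not tested.

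With single libraries left out, the differences ran from -1.09 to -0.75 for CRY1, -0.57 to -0.48 for CRY2, -0.73 to -0.18 for PHYA, -0.95 to -0.32 for PHYB, -0.65 to 0.38 for PHYC, -0.38 to -0.20 for PHYD, -0.47 to 0.27 for PHYE, -0.47 to -0.15 for PHOT1 and -0.38 to -0.24 for PHOT2. The medians ran from -0.48 to -0.32 for the photoreceptor genes and from -0.52 to -0.47 for the list. Same-numbered replicates did not deviate together (Pearson r of -0.0043 across 17049 loci, which are not independent). A value near 0 cannot tell whether same-numbered libraries were prepared together. The number of the second abh1 library comes from its replicate label, while its title carries 8. With the replicate block over all loci the median difference stayed at -0.31 and there was no call to change. Over loci without repeated values, added after seeing the data, the block gave 0 calls of CRY1 (adjusted p = 0.0561) or ZTL (0.0635), and 216 in place of 567 over all 6572 loci. With the 5 unnamed loci the list's median was -0.46 and its count 0.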
